A study of Homo sapiens with 6 samples.

Results

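Genes of cholesterol and fatty acid synthesis were followed in the hepatocellular carcinoma line SNU-398, an established line of human liver cancer, after a short hairpin RNA (shRNA) against SALL4 or a scrambled control shRNA. SALL4 encodes a zinc finger transcription factor that is active in stem cells and in the fetal liver. The list holds 31 genes chosen by name for their roles in the 2 pathways, of 18404 genes named on the arrays. It has 18 genes of the sterol branch, 6 genes here called the SREBP regulators, and 7 genes of the fatty acid branch. The regulators are genes for the SREBP transcription factors and their sterol sensing, with STARD4, a sterol carrier, placed among them. A probe set (a group of probes summarised into 1 value) of its own was found for 29 of the 31 genes. FDFT1 (squalene synthase) is not analysed here. The single probe set for HSD17B7 is also annotated to the pseudogene HSD17B7P2 and was left out. The 29 genes are 16 of the sterol branch, 6 regulators and 7 of the fatty acid branch.

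Total RNA of 6 cultures was hybridized to Affymetrix arrays, 3 given the SALL4 shRNA and 3 a scrambled one, all grown in RPMI medium with serum. The labels describe the cultures of a group as biological replicates. They give 1 cell line, no second hairpin against SALL4, no rescue and no time after the shRNA, so effects of the hairpin other than lower SALL4 cannot be told apart from it. In such bulk RNA fewer cells of a type and less RNA per cell cannot be told apart either. The deposited values are intensities on a linear scale with a floor of 10.

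Cells build cholesterol from acetyl-CoA through mevalonate, farnesyl diphosphate, squalene and lanosterol, and build fatty acids from the same acetyl-CoA through malonyl-CoA. Both routes are under the SREBP transcription factors. SREBF2 encodes the member known mainly for sterol genes and SREBF1 that known mainly for fatty acid genes. SCAP escorts the SREBP precursors from the endoplasmic reticulum to the Golgi when sterol is low, and the INSIG proteins hold SCAP back when sterol is high. Liver is a main site of both syntheses, and active SREBP is known to raise most genes of the sterol branch together.

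SALL4 itself was at 121, 119 and 117 on the SALL4 shRNA arrays and at 283, 264 and 335 on the scrambled arrays, with no overlap. The log2 change, SALL4 shRNA minus scrambled, was -1.30 ± 0.18 (SE), 40.6% of the scrambled level, with an adjusted p of 0.0108 in the fit used throughout (limma across 13325 genes, Benjamini-Hochberg, threshold 0.05). By an exact permutation test (two-sided) SALL4, like any gene whose groups do not overlap, had p = 0.1, below which a design of 3 against 3 cannot go. The adjusted p of SALL4 was 0.0946 with no filter on dim genes, and 0.0685 without scrambled replicate 3 and SALL4 shRNA replicate 2 together. The array medians lay between 47.85 and 51.69. ALB (10.1 to 12.8) and AFP (10.6 to 17.8), serum proteins of adult and fetal liver, lay near the floor on all 6 arrays, while the fetal liver genes IGF2BP1 (468.7 to 593) and GPC3 (119 to 165) were well above it. Of the 7 hepatocyte markers 6 have a value. The 3 tested were APOA1 (54.5 to 85.55), APOA2 (22.26 to 45.04) and SERPINA1 (28.61 to 39.87). Of the 5 blood cell markers PTPRC and LYZ were at the floor on all arrays and CD68 (95.9 to 191) was the 1 bright enough to test, and of the 4 fat cell markers FABP4 was at the floor and PLIN1 (37.5 to 63.6) was tested. The 4 endothelial markers were below the minimum for testing. Of the 4 bile duct markers 3 were tested, and the list summed to 236 to 276 on SALL4 shRNA arrays and 200.03 to 278 on scrambled arrays. None of these passed in limma. The 5 fibroblast markers summed to 775 to 1126 on SALL4 shRNA arrays and 1023 to 1049 on scrambled arrays, and 1 of them, DCN, fell (83.4 ± 21.1 on SALL4 shRNA arrays, 195 ± 17.2 on scrambled arrays, SD, n = 3 each, limma adjusted p 0.0218). The call of DCN was lost with no filter (adjusted p 0.118) and in 5 of the 6 fits without 1 array (up to 0.0796). The fibroblast genes COL1A2 (0.50, groups not overlapping, adjusted p 0.235), COL1A1 (0.37) and PDGFRB (0.32) had positive log2 changes and LUM, the brightest, -0.08. The part of these markers in the results was not tested.

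Of the 3 groups the sterol branch had the median farthest from that of all genes, on the positive side, with changes in both directions. Within that branch SC5D, MVK and MSMO1 had the largest positive changes, while ACAT2, at the head of the route, had the largest negative one. No gene of the list passed the test on its own. Over all genes, 220 of 13325 passed (1.65%), 80 higher (0.600%) and 140 lower (1.05%), and 0 of the 29 pathway genes did in this limma fit, with a lowest adjusted p of 0.0736. Limma with trend and robust settings called 2 of the 29, ACAT2 (adjusted p 0.0265) and SC5D (0.0377), as did a fit on log2(intensity + 16) (0.0445 and 0.0435). Over all 13325 genes the trend and robust settings called 486 and the fit on log2(intensity + 16) called 433, against the 220 above. The smallest log2 change among the 220 called genes was 0.79 in size, and the pathway genes lay between -0.77 and 0.77. At an unadjusted p under 0.05 there were 9 of 29 pathway genes, 7 higher and 2 lower (31% of them), where 16.8% of all genes tested reached it, 8.08% higher and 8.68% lower. That count of 9 was 5 without scrambled replicate 1, and also 5 without scrambled replicate 3. The share of all genes at that p was not counted in those 2 fits. The groups did not overlap for 10 of the 29, 8 higher and 2 lower, against 22.2% of all genes.

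Within the sterol branch 11 of 16 genes had a positive log2 change and 5 a negative one, with a median of 0.35, while the median of all genes tested was 0.02 and 52.3% of them were above 0. The groups did not overlap for 8 of the 16 (50%): 7 were higher with the SALL4 shRNA, against 11.5% of all genes, and 1 was lower, against 10.8%. Among the regulators 5 of 6 were positive, with a median of 0.15, and the groups overlapped for 5. That median was 0.053 without scrambled replicate 3 and 0.26 without scrambled replicate 2. In the fatty acid branch 2 of 7 were positive, with a median of -0.10, and the groups overlapped for 6. That median was -0.0068 without scrambled replicate 1, -0.024 without scrambled replicate 3, -0.021 without SALL4 shRNA replicate 3 and -0.051 with arrays centred on their medians. These medians describe the groups, and the difference between the branches was not tested.

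**Figure D1:**
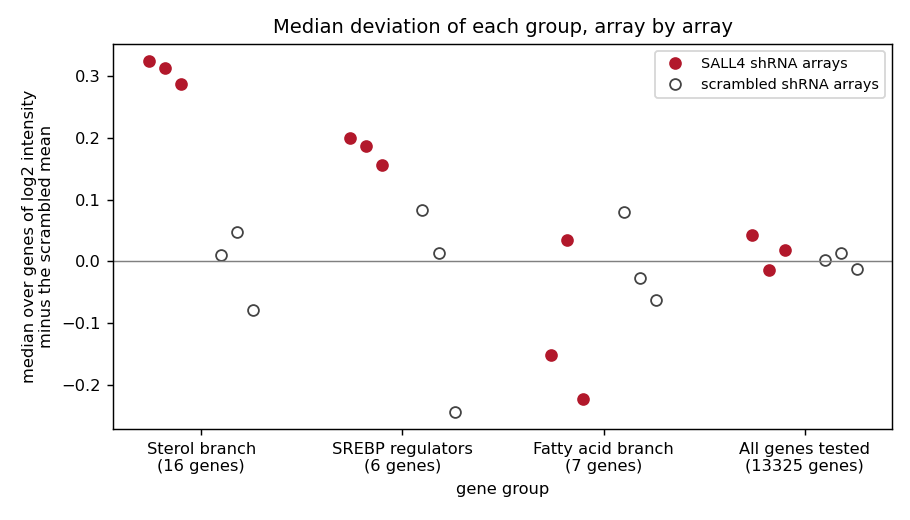
For each of the 6 arrays, the median over the genes of a group of log2 intensity minus the scrambled mean of the same gene (vertical axis) is shown for the sterol branch, the SREBP regulators, the fatty acid branch and all genes tested (horizontal axis), with filled points for SALL4 shRNA arrays and open points for scrambled arrays. The sterol branch sits at 0.29 to 0.32 on SALL4 shRNA arrays and at -0.08 to 0.05 on scrambled arrays, and the fatty acid branch overlaps between the groups.

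Array by array, the median of the sterol branch relative to its scrambled mean was 0.32, 0.31 and 0.29 on the SALL4 shRNA arrays and 0.01, 0.05 and -0.08 on the scrambled arrays. The scrambled arrays lie around 0 by construction. For the regulators the values were 0.20, 0.19 and 0.16 on SALL4 shRNA arrays and 0.08, 0.01 and -0.24 on scrambled arrays, so that scrambled replicate 3 was the low one. For the fatty acid branch they were -0.15, 0.03 and -0.22 on SALL4 shRNA arrays and 0.08, -0.03 and -0.06 on scrambled arrays, which overlap. The median over all genes ranged from -0.01 to 0.04 on SALL4 shRNA arrays and from -0.01 to 0.01 on scrambled arrays. A lack of overlap was not particular to the sterol branch, since the regulator medians did not overlap either. Of the further lists described below, other synthesis did not overlap (0.16 to 0.17 with the SALL4 shRNA, -0.06 to 0.02 scrambled). Lower without overlap were fatty acid oxidation (-0.27 to -0.15, against -0.10 to 0.13) and sterol handling (-0.245 to -0.104, against -0.096 to 0.124). The other control genes overlapped.

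The promoters of 4 sterol genes that were higher on every SALL4 shRNA array, and of ACLY, which was lower on every one, are shown because SREBP is known to act on these genes through elements in their promoters. They are RefSeq promoters (GRCh38.p14, from 250 bases before to 50 after the gene's start, on the gene's strand), of which 27 of the 31 genes have at least 1. Capitals mark matches on either strand to CACNCCAC and CACCNNAC, spellings of the sterol regulatory element's octamer, to CCAAT, the box bound by NF-Y, a known partner of SREBP, and to CACGTG, an E-box. CACNCCAC and CACCNNAC can match the same bases. SC5D, HMGCS1 and ACLY have 2 promoters each, and the one with more bases in capitals is shown. SQLE, IDI1 and NSDHL were also higher on every SALL4 shRNA array, and no promoter of theirs is shown.
SC5D, chr11:121292521-121292820, plus strand: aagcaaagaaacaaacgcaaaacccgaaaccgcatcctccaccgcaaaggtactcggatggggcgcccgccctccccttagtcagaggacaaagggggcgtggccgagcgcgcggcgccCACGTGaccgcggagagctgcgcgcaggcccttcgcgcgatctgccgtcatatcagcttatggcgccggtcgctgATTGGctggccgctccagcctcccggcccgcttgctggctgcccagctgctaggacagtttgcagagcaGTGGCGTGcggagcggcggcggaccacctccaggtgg
MVK, chr12:109573544-109573843, plus strand: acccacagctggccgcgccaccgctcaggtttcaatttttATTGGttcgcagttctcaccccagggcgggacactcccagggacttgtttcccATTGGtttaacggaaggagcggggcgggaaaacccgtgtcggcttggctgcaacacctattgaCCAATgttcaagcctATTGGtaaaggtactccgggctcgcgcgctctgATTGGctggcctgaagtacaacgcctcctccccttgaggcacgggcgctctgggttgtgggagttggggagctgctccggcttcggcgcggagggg
MSMO1, chr4:165327419-165327718, plus strand: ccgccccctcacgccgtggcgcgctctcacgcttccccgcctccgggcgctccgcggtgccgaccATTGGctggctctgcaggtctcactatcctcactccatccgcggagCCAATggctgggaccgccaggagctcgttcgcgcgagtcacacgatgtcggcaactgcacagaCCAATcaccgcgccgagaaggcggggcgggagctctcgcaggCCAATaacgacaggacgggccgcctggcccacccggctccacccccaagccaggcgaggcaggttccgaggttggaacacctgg
HMGCS1, chr5:43313363-43313662, minus strand: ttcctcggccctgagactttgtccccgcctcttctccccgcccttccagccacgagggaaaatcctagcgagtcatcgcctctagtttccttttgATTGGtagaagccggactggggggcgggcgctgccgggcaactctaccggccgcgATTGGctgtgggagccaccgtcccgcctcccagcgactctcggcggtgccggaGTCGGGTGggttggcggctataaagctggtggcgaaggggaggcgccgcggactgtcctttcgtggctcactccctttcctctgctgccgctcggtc
ACLY, chr17:41918973-41919272, minus strand: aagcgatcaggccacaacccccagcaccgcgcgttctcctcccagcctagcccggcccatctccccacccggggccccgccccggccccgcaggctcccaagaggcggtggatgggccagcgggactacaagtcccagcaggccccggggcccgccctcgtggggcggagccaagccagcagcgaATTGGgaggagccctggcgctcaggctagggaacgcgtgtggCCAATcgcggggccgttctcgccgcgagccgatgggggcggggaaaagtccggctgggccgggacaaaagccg

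The promoters searched are not those of the 29 measured genes exactly. HSD17B7, which has no change here, is included, while no promoter of ACAT2, SQLE, FDFT1 or FASN was searched. CCAAT was found in 15 of the 20 promoters of the sterol branch (75%), in 3 of 7 of the regulators, in 6 of 10 of the fatty acid branch (60%), and in 34.6% of all 35116 promoters. The windows above hold 5 CCAAT matches for MVK, 4 for MSMO1, 2 for HMGCS1, 2 for ACLY and 1 for SC5D. Those of MVK, MSMO1 and ACLY hold no match to CACNCCAC, CACCNNAC or CACGTG. The octamer CACNCCAC was in 3 of the 20 sterol promoters (of IDI1 and SC5D), in 2 of the regulators' (INSIG1 and SREBF2), in 2 of the fatty acid branch's (ACACA and SCD), and in 5.87% of all promoters. CACCNNAC was in 8 of the 37 promoters of the listed genes, HMGCS1 and SCAP among them, and in 12.3% of all. By branch it was in 3 of 20 sterol promoters (15%), 3 of 7 of the regulators and 2 of 10 of the fatty acid branch. CACGTG was in 5 of the 37, those of LSS, SC5D, SCAP and INSIG1, and in 7.26% of all. Its counts by branch were 3 of 20 sterol promoters, 2 of 7 of the regulators and 0 of 10 of the fatty acid branch. In all 6 spellings were searched, and these 4 were kept after their matches had been seen. The 2 not marked, CACCCCAC and TCACNCCAC, are narrower forms of CACNCCAC, and each was in 1 of the 37 promoters, that of SREBF2 (2.79% and 1.13% of all promoters). A match is a description of these letters only. Genes with a CCAAT match include FDPS and DHCR7, which had negative changes.

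The first enzymes of the route, up to isopentenyl diphosphate, differed in direction. ACAT2, the cytosolic thiolase that joins 2 acetyl-CoA, was at 627, 499 and 455 on SALL4 shRNA arrays and at 773, 1076 and 855 on scrambled arrays. All 3 SALL4 shRNA arrays lie below all scrambled arrays, with a log2 change of -0.77 ± 0.21 (SE) and a limma adjusted p of 0.0771. HMGCS1, the synthase that makes HMG-CoA, was at 488, 535 and 641 on SALL4 shRNA arrays and at 395, 451 and 362 on scrambled arrays. These do not overlap and give a log2 change of 0.46 ± 0.19 (adjusted p 0.252). MVK, mevalonate kinase, was at 83.8, 70.6 and 91.7 on SALL4 shRNA arrays and at 36.5, 60.6 and 52.8 on scrambled arrays. It is the second largest positive change of the list, at 0.74 ± 0.22 (adjusted p 0.114), and its mean log2 intensity is under the stricter minimum of 6.

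The groups overlapped for the next kinase and for the decarboxylase. PMVK, phosphomevalonate kinase, had a change of 0.55 ± 0.26 (SE), but scrambled replicate 2 (165) was above 2 of the SALL4 shRNA arrays (192, 156 and 139). The change of PMVK was 0.84 without scrambled replicate 2 and 0.32 without scrambled replicate 3. MVD, the decarboxylase that ends the mevalonate steps, was at -0.05 with overlapping groups, and its 95% interval ran from -0.45 to 0.35. IDI1, the isomerase of isopentenyl diphosphate, was at 673, 733 and 599.6 on SALL4 shRNA arrays and at 534, 490.1 and 521 on scrambled arrays. Its groups did not overlap, at a change of 0.37 ± 0.18 with an adjusted p of 0.325. FDPS, which makes farnesyl diphosphate, ran the other way at -0.40 ± 0.20, with SALL4 shRNA replicate 2 (450.4) above scrambled replicate 3 (417). The FDPS values are from the 1 probe set of its own, and 2 more that it shares with other genes were left out.

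**Figure D2:**
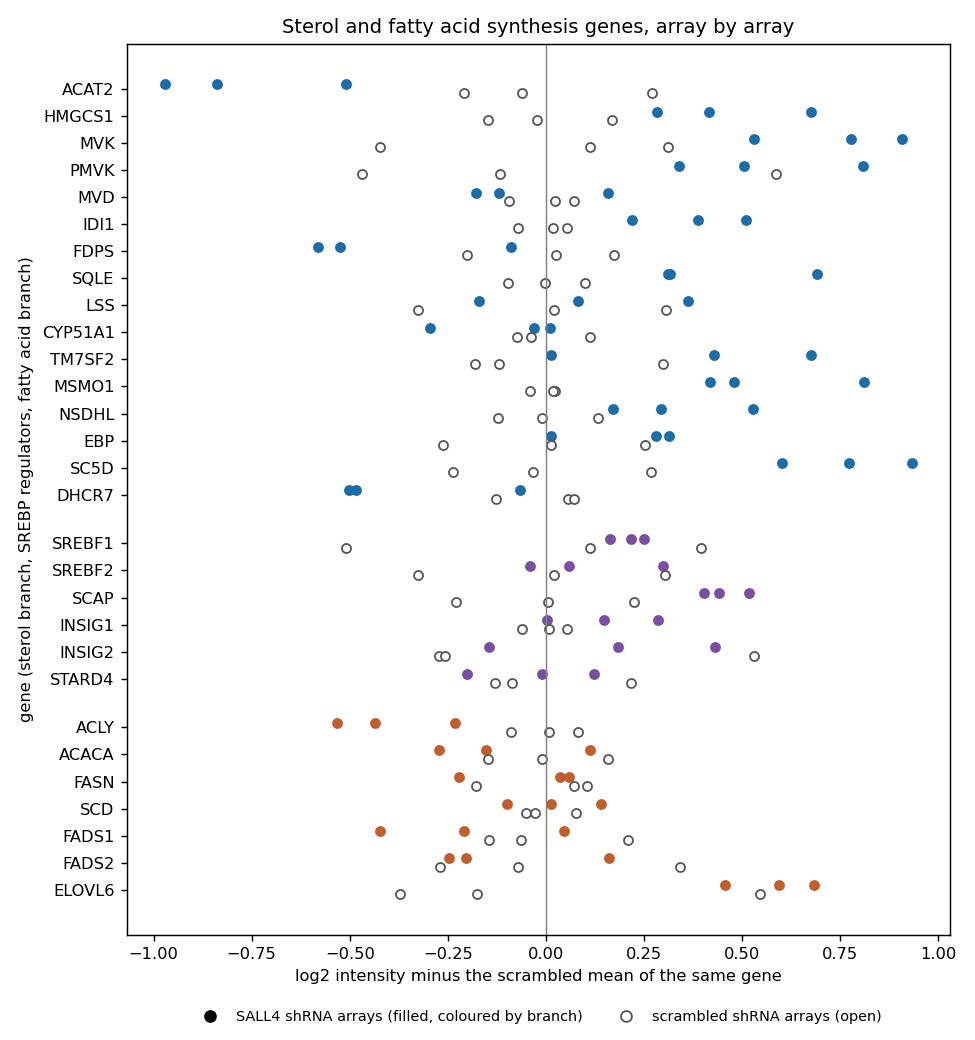
Each row is a gene, in the order of the pathway within the sterol branch (blue), the SREBP regulators (purple) and the fatty acid branch (orange), and each point is 1 array: filled for SALL4 shRNA, open for scrambled shRNA. The horizontal axis is log2 intensity minus the scrambled mean of that gene; for SC5D, MSMO1, MVK, HMGCS1, SQLE, IDI1, NSDHL and SCAP all filled points lie right of all open ones, and for ACAT2 and ACLY all lie left.

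After squalene the groups did not overlap for 4 genes, those of the epoxidase and of the C4 and C5 steps. SQLE, the squalene epoxidase and a rate-controlling step, was at 1929, 1483 and 1487 on SALL4 shRNA arrays and at 1193, 1279 and 1118 on scrambled arrays. SALL4 shRNA replicate 1 was the high one, and the log2 change was 0.44 ± 0.19 (SE, adjusted p 0.266). MSMO1, the C4 methyl oxidase, was at 466, 612 and 487 on SALL4 shRNA arrays and at 354, 339 and 353 on scrambled arrays. The scrambled arrays lie close together, and the change was 0.57 ± 0.19 (adjusted p 0.138). NSDHL, the dehydrogenase that acts with MSMO1 at C4, was at 247, 193 and 209.97 on SALL4 shRNA arrays and at 188, 170.1 and 157 on scrambled arrays. It had no overlap and a change of 0.33 ± 0.19 (adjusted p 0.405). SC5D, the C5 desaturase, was at 405, 363 and 322 on SALL4 shRNA arrays and at 256, 180.1 and 208 on scrambled arrays. This is the largest positive change of the list, 0.77 ± 0.20, a 1.70-fold difference with an adjusted p of 0.0736.

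The remaining enzymes of this stretch overlapped between the groups. TM7SF2, a C14 reductase, was at 0.37 ± 0.22 (SE), EBP, the sterol isomerase, at 0.20 ± 0.20 and LSS, which closes the ring to lanosterol, at 0.09 ± 0.22. DHCR7, the last reductase on the way to cholesterol, was at -0.35 ± 0.19, with SALL4 shRNA replicate 2 (476) above scrambled replicate 3 (456). CYP51A1, the C14 demethylase, has 2 probe sets that differ in sign: the brighter gave -0.10 and the dimmer 0.44, and neither separated the groups. Within the branch a gene near 0 could lie between genes with positive changes, as with MVD between PMVK and IDI1.

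**Figure D3:**
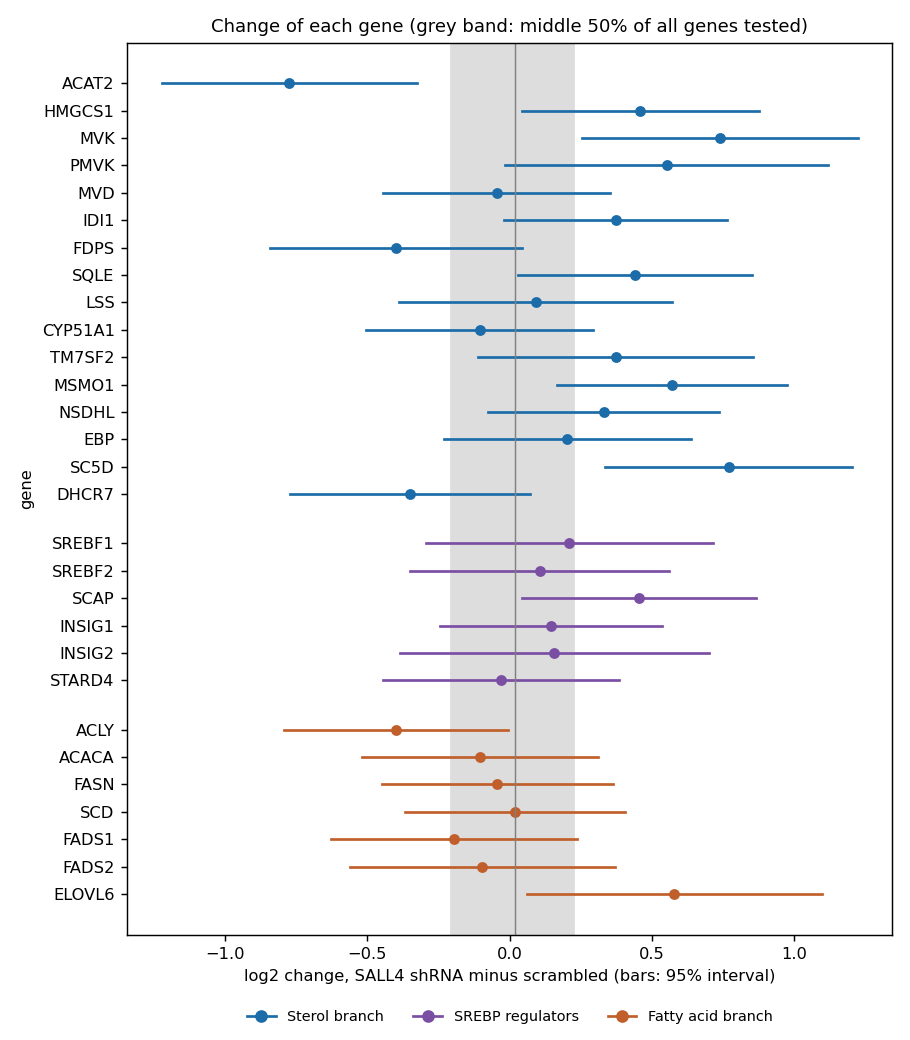
Log2 change of each gene, SALL4 shRNA minus scrambled, with its 95% interval from limma (horizontal axis), for the sterol branch (blue), the SREBP regulators (purple) and the fatty acid branch (orange); the grey band spans the 25% to 75% quantiles of all genes tested, -0.21 to 0.22, and the line is their median. SC5D (0.77) and MVK (0.74) lie farthest to the right and ACAT2 (-0.77) farthest to the left, and 5 of the 7 intervals of the fatty acid branch include 0.

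The transcripts of the SREBP factors themselves showed no shift beyond their spread. SREBF2 was at 135, 126 and 160 on SALL4 shRNA arrays and at 160.4, 132 and 104 on scrambled arrays, a log2 change of 0.11 ± 0.21 (SE) with a 95% interval from -0.35 to 0.56. SREBF1 was at 94.1, 96.4 and 90.7 on SALL4 shRNA arrays and at 87.6, 107 and 56.9 on scrambled arrays, a change of 0.21 ± 0.23 with an interval from -0.29 to 0.71. Without scrambled replicate 3, the lowest array for both, the changes were -0.06 for SREBF2 and -0.04 for SREBF1. These intervals do not show that the levels were alike, and SREBP activity rests on cleavage of the protein, which arrays do not measure.

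Among the 6 regulators SCAP was the 1 gene whose groups did not overlap (16.7%, against 22.2% of all genes). SCAP was at 182, 168 and 173 on SALL4 shRNA arrays and at 149, 128 and 109 on scrambled arrays, with no overlap. Its log2 change was 0.45 ± 0.19 (SE), with an unadjusted p of 0.0327 and an adjusted p of 0.250. INSIG1, itself a known SREBP target that retains SCAP, was at 365, 300.1 and 332 on SALL4 shRNA arrays and at 311, 287 and 301 on scrambled arrays. SALL4 shRNA replicate 2 fell inside the scrambled range, and the change was 0.15 ± 0.18. INSIG2, the other retention protein, was at 0.16 ± 0.25, and STARD4, a cytosolic sterol carrier, at -0.03 ± 0.19, both with overlapping groups.

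In the fatty acid branch ACLY was the 1 gene of 7 whose groups did not overlap (14.3%, against 22.2% of all genes). ACLY, the ATP citrate lyase that supplies cytosolic acetyl-CoA to both routes, was at 237, 222 and 273 on SALL4 shRNA arrays and at 339, 322 and 301 on scrambled arrays. The log2 change was -0.40 ± 0.18 (SE), with an unadjusted p of 0.0473 and an adjusted p of 0.292.

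The carboxylase, the synthase and the desaturase SCD had changes near 0. ACACA, acetyl-CoA carboxylase, was at 344, 413 and 316 on SALL4 shRNA arrays and at 345, 379 and 427 on scrambled arrays, a log2 change of -0.10 ± 0.19 (SE). FASN, the fatty acid synthase, was at 178, 175 and 147 on SALL4 shRNA arrays and at 184, 151 and 179.8 on scrambled arrays, a change of -0.04 with a 95% interval from -0.45 to 0.36. SCD, the desaturase that makes oleate, was at 1520.4, 1405 and 1661 on SALL4 shRNA arrays and at 1455, 1478 and 1589 on scrambled arrays, a change of 0.02 with an interval from -0.37 to 0.40. For all 3 genes the arrays of the groups were interleaved, and the sign of FASN turned (0.0032) when arrays were centred on their medians and that of SCD (-0.015) under quantile normalization.

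The genes for polyunsaturated and long chains went both ways. FADS1, the delta-5 desaturase, was at -0.19 ± 0.20 (SE) and FADS2, the delta-6 desaturase, at -0.10 ± 0.21. ELOVL6, which elongates palmitate, was at 92.2, 83.8 and 98.0 on SALL4 shRNA arrays and at 54.1, 89.2 and 47.2 on scrambled arrays. Scrambled replicate 2 lies within the SALL4 shRNA range. The change was 0.58 ± 0.24 with an unadjusted p of 0.0317 and an adjusted p of 0.247, and it was 0.85 without scrambled replicate 2 and 0.39 without scrambled replicate 3. ELOVL6 was the gene with the largest positive change in a branch whose median was negative.

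Further genes around these routes were taken from 4 lists. Of 27 other genes of sterol and lipid synthesis and chain elongation, 23 have a value, 21 were tested and 0 passed in limma. The other 4 of the 27 are not analysed here. At an unadjusted limma p under 0.05 there were 4 (19.0%), against 16.8% of all genes. The log2 change was positive for 14 and negative for 7, with a median of 0.13. ACSL1, an acyl-CoA synthetase, had the lowest p, at 70.8, 65.2 and 57.4 on SALL4 shRNA arrays and at 187, 144 and 80.3 on scrambled arrays (-1.01 ± 0.27, SE, adjusted p 0.0802). LBR, a nuclear membrane protein with C14 sterol reductase activity like TM7SF2, was at 911, 1117 and 924 on SALL4 shRNA arrays and at 636, 666 and 667 on scrambled arrays. The change of LBR was 0.58 ± 0.18, with an adjusted p of 0.124.

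Of 21 other genes that control these routes, 19 were tested and 0 passed in limma. An unadjusted limma p under 0.05 was reached by 3 (15.8%), against 16.8% of all genes. The log2 change was positive for 12 and negative for 7, with a median of 0.09. ERLIN2, part of a complex for protein degradation in the endoplasmic reticulum, was at 161, 94.96 and 150.1 on SALL4 shRNA arrays and at 71.3, 77.0 and 74.2 on scrambled arrays (0.83 ± 0.22, SE, adjusted p 0.0768). TRIB1, a pseudokinase known in liver for restraining lipid synthesis, was at 407, 497 and 568 on SALL4 shRNA arrays and at 330, 300.2 and 323 on scrambled arrays, with no overlap (0.62 ± 0.19, adjusted p 0.123).

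Of 17 genes of sterol uptake, transport, storage and catabolism 15 have a value and 2 are not analysed here. Of the 15, 12 were tested and 3 lay below the minimum, and NPC2 rose while 11 did not pass. NPC2, which carries cholesterol out of the lysosome lumen, was at 1961, 1840 and 1495 on SALL4 shRNA arrays and at 748, 625 and 623 on scrambled arrays (1.40 ± 0.19, SE, 2.65-fold, adjusted p 0.0108). The call of NPC2 was lost with no filter (adjusted p 0.0946) and without scrambled replicate 3 and SALL4 shRNA replicate 2 together (0.0685). Its membrane partner NPC1 was at -0.24 ± 0.19. STARD3, a late endosomal sterol carrier, was at 147, 118 and 148 on SALL4 shRNA arrays and at 280.4, 202 and 230.3 on scrambled arrays, a change of -0.78 ± 0.20 (adjusted p 0.0684). SCARB1, the receptor that takes up cholesterol esters from high-density lipoprotein, was at 97.6, 87.3 and 94.5 on SALL4 shRNA arrays and at 159, 125 and 159.99 on scrambled arrays, a change of -0.66 ± 0.19 (adjusted p 0.0916). The median of the 12 was -0.14, with 4 positive and 8 negative; the groups did not overlap for 7 of them (58.3%), 1 higher and 6 lower, where 22.2% of all genes did not overlap, 11.5% higher and 10.8% lower.

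**Figure D4:**
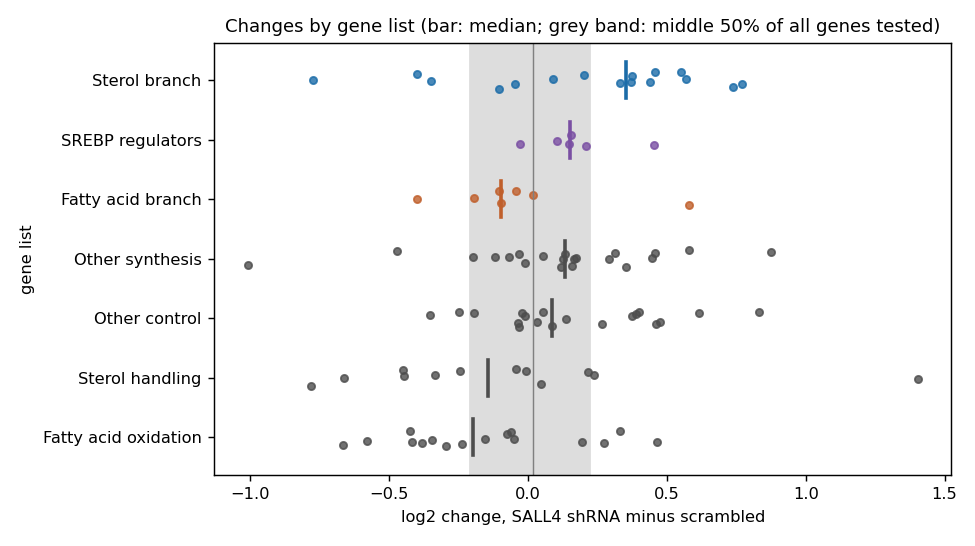
Log2 change, SALL4 shRNA minus scrambled (horizontal axis), of every tested gene in 7 lists, with a bar at each list's median; vertical scatter within a list has no meaning. The grey band is the 25% to 75% range of all genes tested, the sterol branch median (0.35) lies to its right, the other 6 medians lie inside it, and NPC2 is the point at 1.40.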

How the data were processed

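Biotin-labelled cRNA of total RNA was hybridized to Affymetrix arrays, per the labels. The authors deposited intensities on a linear scale for 32319 probe sets. The submitters' processing notes name RMA (background correction, normalization and summary of probes) but no version, and what was done after it is not given in the sources used. Between 15.5% and 16.9% of the values of an array lie at the floor of 10, so changes of dim genes are understated. No column was left unused.

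The deposited intensities were put on a log2 scale with no further normalization. The supplied platform annotation gives 1 symbol for 19158 probe sets and several for 1388, while 11773 have no entry. Symbols were brought up to date by Entrez identifier (19128 matched), and the probe set with the highest mean was used for each of 18404 genes. Genes with a mean log2 intensity over the 6 arrays of at least 5 (intensity 32) were kept, 13325 in all, the 29 measured pathway genes among them. SALL4 shRNA minus scrambled was tested in R 4.3.3 with lmFit and eBayes of limma 3.58.1 (two-sided) and adjusted over all 13325 genes (Benjamini-Hochberg). Of the named genes 552 were constant, with the floor value on each array. The prior degrees of freedom were 8.08 in this fit, 4.97 with only these constant genes left out and 1.09 with nothing filtered.

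The genes, lists, filter and tests were chosen with earlier results of these data known. Genes with values on every array are those whose groups do not overlap, 9 fixed by name (SREBF1, SREBF2, SCAP, INSIG1, HMGCS1, SQLE, FASN, ACACA and SCD) and, from further lists, called genes and the 2 with the lowest p. Array values of PMVK, FDPS, DHCR7 and ELOVL6, and the genes NPC1 and CPT1A and the cell type markers named, were added after they were seen. On simulated arrays of 13325 genes this fit found 50% of the genes given a log2 change of 1 and 95% of those given a change of 2; of its 150 calls 5 were false. The deviations of same-numbered arrays gave r from -0.09 to 0.0004, and those of differently numbered arrays r from -0.06 to 0.09. Replicate number was not used as a pairing in the fit used throughout. With deviations taken within groups of 3 arrays, these r values cannot exclude a pairing. The number of arrays limits the precision. Alternatives varied the filter, spread model, normalization, log scale, probe set choice, replicate block and arrays.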

Additional observations from a re-analysis of the deposited data

How the results depend on the processing

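The count of genes called over the whole array, 220, was 0 with no filter, 40 with only constant genes left out, 341 at a minimum of 6, 486 with trend and robust settings, 433 on log2(intensity + 16), 7 with every probe set on its own, 37 with the replicate block, 37 to 97 without 1 array, and 20 without scrambled replicate 3 and SALL4 shRNA replicate 2 together. Fits of fewer arrays have fewer degrees of freedom. The unfiltered limma fit gave 10 of the 29 pathway genes an unadjusted p under 0.05. Of the 29, 2 were called with trend and robust settings and 2 on log2(intensity + 16), and 0 under the other alternatives counted by gene, the replicate block included, where 7 had an unadjusted p under 0.05. For the unfiltered fit and the replicate block the share of all genes at that p was not counted, so the 10 and the 7 have no background here. The setting with every probe set on its own gives no count by gene. SALL4 kept its direction throughout; its log2 change was -1.30 (adjusted p 0.0946) with no filter and -1.20 (0.0685) without those 2 arrays. The sterol branch median was 0.28 to 0.36 without 1 array and 0.28 without those 2 arrays. The regulator median was 0.053 to 0.26 without 1 array and 0.0094 without those 2 arrays, and the fatty acid median -0.13 to -0.0068 without 1 array. NPC2 and DCN, put through the alternatives after their values were seen, kept their directions; DCN was also not called with only constant genes left out (adjusted p 0.0581), with the replicate block (0.0580) or without those 2 arrays (0.0975).

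Signs turned only for genes that no fit called. Without 1 array the log2 changes ran from -0.13 to 0.047 for FASN (0.0032 with centred arrays), -0.043 to 0.077 for SCD (-0.015 with quantile normalization), -0.23 to 0.074 for FADS2, -0.072 to 0.24 for LSS, -0.044 to 0.41 for SREBF1, -0.057 to 0.26 for SREBF2, -0.11 to 0.079 for STARD4 (0.017 with centred arrays) and -0.15 to 0.020 for MVD. CYP51A1 was at 0.17 as the mean of its probe sets. Without those 2 arrays MVD was at 0.056, CYP51A1 at 0.046, SREBF1 at -0.065, INSIG2 at -0.11 and STARD4 at 0.0030. The causes were not tested.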

Other observations

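Genes of fatty acid oxidation, the route that breaks fatty acids down in mitochondria, mostly had negative changes with the SALL4 shRNA, and 0 of the 16 tested of 20 listed passed in limma (4 at an unadjusted p under 0.05, 25% of them, 1 higher and 3 lower, against 16.8% of all genes). The log2 change was negative for 12 and positive for 4, with a median of -0.20, against 0.02 over all genes, and the groups did not overlap for 7 (43.8%), 2 higher and 5 lower, against 22.2% of all genes, 11.5% higher and 10.8% lower. ACADM, the medium-chain acyl-CoA dehydrogenase, was at 643, 581 and 519 on SALL4 shRNA arrays and at 962, 1121 and 717 on scrambled arrays (-0.67 ± 0.21, SE, adjusted p 0.127). HADH, the short-chain hydroxyacyl-CoA dehydrogenase, was at 138, 168 and 188 on SALL4 shRNA arrays and at 249, 212 and 275 on scrambled arrays (-0.58 ± 0.20, adjusted p 0.157). CPT1A, which admits long-chain acyl groups to mitochondria, ran the other way at 0.47 ± 0.21 (adjusted p 0.28).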
